A study of Mus musculus with 6 samples.

Results

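The carbonic anhydrases examined here are 9 mouse genes, Car2, Car3, Car4, Car5b, Car8, Car12, Car13, Car14 and Car15, taken by symbol from a table of 15302 genes measured in whole kidneys. The rule matched gene symbols alone, and all 9 genes were found in the table. The list itself was drawn up from general knowledge, with earlier results of these data known. Another 7 family symbols were looked for and 4 were listed (Car5a, Car7, Car9 and Car11), while Car1, Car6 and Car10 were not analysed here. The kidneys came from 3 Tsc1-KO mice, whose genotype is Tsc1f/f/Aqp2 Cre, and from 3 wild-type (WT) C57BL/6 mice, all aged 45 days. In Tsc1-KO mice both Tsc1 alleles are flanked by loxP sites and Cre is driven by the promoter of Aqp2, the water channel of collecting duct principal cells, so Tsc1 is deleted in those cells while the other cells of the kidney keep the gene. The line is a model of the kidney cysts of tuberous sclerosis, in which acid-secreting A-intercalated cells make up much of the cyst lining, and the question for this family is whether its mRNA differs between the genotypes. The labels leave unsaid if the WT mice came from the same litters or carried Cre or floxed alleles.

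Carbonic anhydrases catalyse the reversible hydration of carbon dioxide to bicarbonate and a proton, with a zinc ion held by 3 histidines in the active site. In the proximal tubule, cytosolic and membrane-bound forms serve the recovery of filtered bicarbonate. In A-intercalated cells, cytosolic CA II, the product of Car2, supplies protons to the apical vacuolar H+-ATPase and bicarbonate to the basolateral chloride/bicarbonate exchanger AE1, encoded by Slc4a1.

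The coding sequence around the zinc site shows what 8 of the genes share. The stretches below come from mouse GENCODE vM21 transcripts, run 5′ to 3′, and hold in capitals the codons aligned with the 3 zinc-binding histidines of Car2.
Car2: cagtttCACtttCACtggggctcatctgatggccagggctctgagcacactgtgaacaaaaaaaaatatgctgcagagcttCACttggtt
Car3: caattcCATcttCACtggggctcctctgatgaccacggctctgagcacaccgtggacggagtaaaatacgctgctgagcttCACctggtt
Car13: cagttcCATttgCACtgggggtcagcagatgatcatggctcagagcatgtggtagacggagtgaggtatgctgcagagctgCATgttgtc
Car5b: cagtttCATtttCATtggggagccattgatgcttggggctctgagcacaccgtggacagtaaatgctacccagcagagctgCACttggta
Car4: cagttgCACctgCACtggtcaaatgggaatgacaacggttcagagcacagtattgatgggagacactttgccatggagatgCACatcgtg
Car15: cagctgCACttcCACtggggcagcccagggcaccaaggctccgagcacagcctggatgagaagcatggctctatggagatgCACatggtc
Car12: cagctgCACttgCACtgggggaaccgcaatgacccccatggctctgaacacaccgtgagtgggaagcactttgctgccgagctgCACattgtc
Car14: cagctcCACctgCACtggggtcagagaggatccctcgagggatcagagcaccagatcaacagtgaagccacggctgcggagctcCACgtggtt
In these 8 members all 3 marked codons code for histidine. Over the aligned coding sequence, the share of codons that code for the same residue as in Car2 was 57.6% for Car13, 56.9% for Car3 and 53.2% for Car5b. The share was lower for the membrane-bound members, with 38.1% for Car12, 37.6% for Car14, 36.6% for Car15 and 33.9% for Car4. Along the chromosome, Car3 and Car2 are neighbouring protein-coding genes in the RefSeq annotation, with Car13 and Car1 on the other side of Car3.

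Values are FPKM, fragment counts scaled to the length of each gene and to the depth of each library, which allow levels of different genes to be set side by side per length. The libraries held between 19568856 and 24647430 reads in listed genes. Gene-level Tsc1 was 7.69, 7.61 and 8.23 FPKM in Tsc1-KO kidneys, against 8.46, 8.91 and 7.49 FPKM in WT kidneys, and the groups overlapped (log2 fold change -0.07, adjusted p = 0.699), so whole-kidney Tsc1 neither separates nor contradicts the labels. Proximal tubule markers were abundant in every library, with a summed level of 31590 to 37387 FPKM over 12 genes in Tsc1-KO kidneys and of 32926 to 44211 FPKM in WT kidneys. Most of this sum was Kap in every library. In whole-kidney RNA a change in the number of cells of a type and a change in RNA per cell cannot be told apart.

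No carbonic anhydrase passed the test between genotypes. In the limma fit over 13230 genes, 0 of the 9 members had an adjusted p under 0.05, where 2.11% of all genes tested did, 1.87% higher and 0.234% lower in Tsc1-KO kidneys. At an unadjusted p under 0.05 there were 2 members, Car2 and Car15, beside 19.2% of all genes, and limma-voom on read counts recovered from the FPKM called 0 members, against 1.96% of all genes, with 1 member at an unadjusted p under 0.05. The log2 fold change of Tsc1-KO over WT was positive for 6 of the 9, with a median of 0.14, against a median of 0.04 over all genes tested. In 2 members, again Car2 and Car15, every Tsc1-KO library lay above every WT library, which was the case for 17.3% of all genes. In 0 members every Tsc1-KO library lay below every WT library, against 8.07% of all genes.

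**Figure D1:**
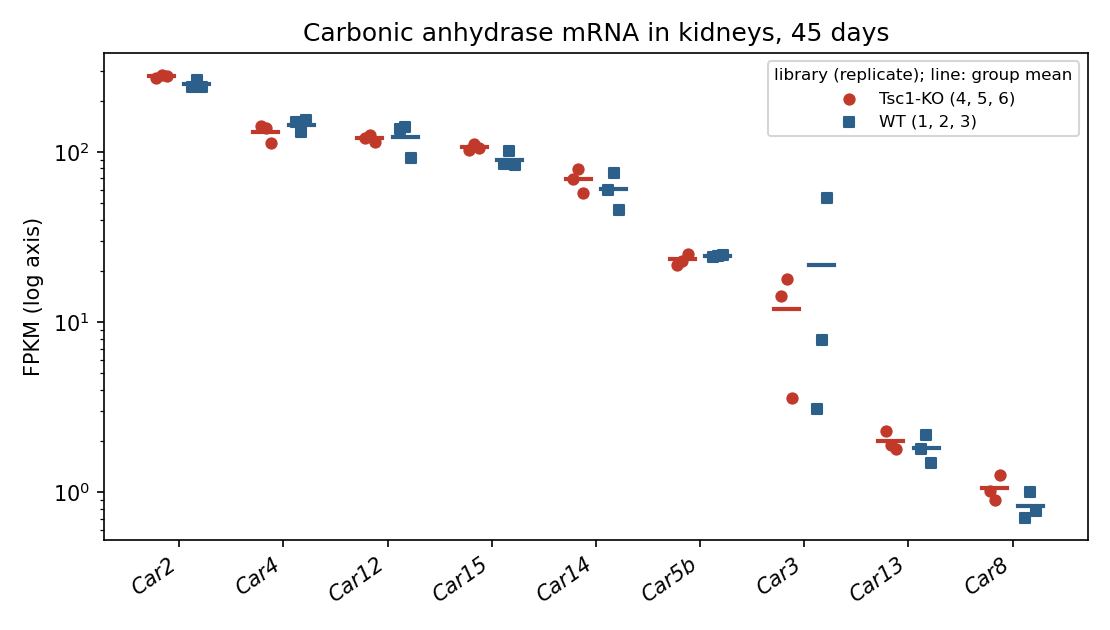
Level of each carbonic anhydrase in each library, in FPKM on a log axis, with the genes ordered by their mean over the 6 libraries. Circles are Tsc1-KO replicates 4 to 6, squares are WT replicates 1 to 3 and lines are group means. The groups are apart only for Car2 and Car15, and Car3 spreads more widely than any other member, between 3.10 and 53.7 FPKM.

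The levels spanned a wide range, and Car2 had the highest in all 6 libraries. The mean of Car2 over the 6 libraries was 263 FPKM, above 138 FPKM for Car4, 121 FPKM for Car12, 98.1 FPKM for Car15 and 64.5 FPKM for Car14. Car5b followed with a mean of 23.9 FPKM, then Car3 with 16.8 FPKM, Car13 with 1.91 FPKM and Car8 with 0.947 FPKM. The mean of Car2 was 278 times that of Car8. Neighbours in this order did not all differ beyond their spread. Car4 was above Car12 in 4 of 6 libraries and Car5b above Car3 in 5 of 6, and the ranges of both pairs overlapped, as did those of Car12 and Car15, although Car12 was the higher in 6 of 6 libraries.

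The summed level of the 9 genes was 743 ± 39.2 FPKM in Tsc1-KO kidneys and 714 ± 28.1 FPKM in WT kidneys (SD, n = 3 each), and the ranges overlapped. Car2 made up 36.4%, 36.2% and 39.9% of this sum in Tsc1-KO kidneys, against 34.2%, 35.5% and 34.7% in WT kidneys. Car15 made up 13.8% to 15.0% of the sum in Tsc1-KO kidneys and 12% to 13.5% in WT kidneys. The shares of both genes were higher in every Tsc1-KO library than in any WT library, with no test run on them. A share depends on every gene in the sum. Car3 made up 7.73% of the sum in WT replicate 3, and 0.443% to 2.31% in the other libraries. Whether the shares of Car2 and Car15 separate without Car3 was not tested.

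Among the cytosolic members, Car2 showed a small difference that did not hold after adjustment. Car2 was at 271, 282 and 280 FPKM in Tsc1-KO kidneys (278 ± 5.72, SD, n = 3), against 240, 265 and 241 FPKM in WT kidneys (249 ± 14.3, SD, n = 3). The highest WT library, replicate 2, lay just under the lowest Tsc1-KO library, replicate 4. On the log2 scale the fold change was 0.16 ± 0.06 (SE), with a 95% interval of 0.02 to 0.31, which is a fold of 1.12 with an interval of 1.01 to 1.24. The adjusted p in limma was 0.216, and the exact permutation test gave p = 0.1, the smallest that 3 against 3 mice allow. With 9327 to 12366 reads per library, counting alone would give a coefficient of variation near 0.959% in Tsc1-KO and 1.01% in WT libraries, below the 2.06% and 5.76% seen between Tsc1-KO mice and between WT mice. What made up the rest of that spread was not tested. Leaving out each library in turn gave log2 fold changes of 0.14 to 0.21.

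The 3 genes whose pattern over the 6 libraries was most like that of Car2, among 12110 genes averaging 1 FPKM or more, were Abi3 (Pearson r = 0.993), Inppl1, an inositol polyphosphate phosphatase (r = 0.991), and Zfp715, a zinc finger protein (r = 0.991). Abi3 was at 1.64, 1.74 and 1.84 FPKM in Tsc1-KO kidneys, against 1.05, 1.47 and 1.04 FPKM in WT kidneys. All 3 correlations are over 6 libraries, share their depth and genotype, and describe these libraries alone.

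Most of the partners of CA II in acid secretion rose, with larger estimated changes than that of Car2. Slc4a1 was at 24.2, 32.9 and 33.5 FPKM in Tsc1-KO kidneys, against 12.4, 12.8 and 12.2 FPKM in WT kidneys, a log2 fold change of 1.25 ± 0.13 (SE, adjusted p = 0.00875 in limma). Of 5 H+-ATPase subunit genes that intercalated cells use, 4 rose, beside 1.87% of all genes tested, and the median log2 fold change of the 5 was 0.68. The largest of these was that of Atp6v0d2, at 37.9, 52.4 and 46.4 FPKM in Tsc1-KO kidneys and 14.4, 15.7 and 17.6 FPKM in WT kidneys (log2 fold change 1.5 ± 0.13, SE). Atp6v1g3 and Atp6v1c2 followed with log2 fold changes of 1.20 and 0.68, and Atp6v1b1 with 0.37. Atp6v0a4, an apical subunit that other nephron segments also use, had a log2 fold change of 0.12 and an adjusted p of 0.311. The count of subunits called was 2 with no variance trend (Atp6v0d2 and Atp6v1g3), 3 with limma-voom, either other scaling or a mean of at least 2 FPKM (those 2 and Atp6v1c2), and between 0 and 4 when each library was left out in turn. It was 0 in the fit lacking Tsc1-KO replicate 6, 1 in that lacking replicate 5, and 2 in those lacking WT replicate 1 or WT replicate 2. The fit lacking WT replicate 3 called 4 subunits and 8.41% of all genes, against 2.11% in the main fit. Shares of all genes called in the other leave-one-out fits are not given here, so these counts are not set against them.

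**Figure D2:**
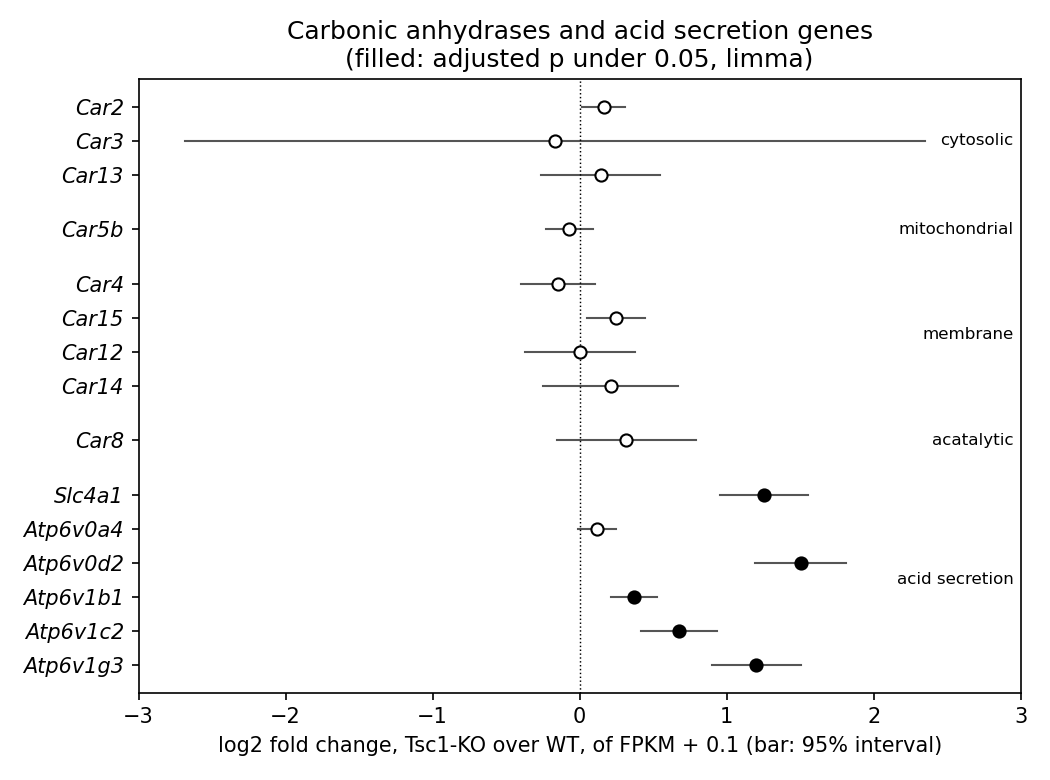
Log2 fold change of Tsc1-KO over WT for the 9 carbonic anhydrases, grouped by where their proteins act, and for the 6 acid secretion genes set beside them. Bars are 95% intervals from limma and filled points have an adjusted p under 0.05. The 9 carbonic anhydrases are all open, while Slc4a1 and 4 of the 5 H+-ATPase subunits are filled.

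The same values can be read within each library as the ratio of Car2 to a partner, given here as a description with no test, since the differences follow from the fold changes above. The log2 ratio of Car2 to Slc4a1 was 3.48, 3.10 and 3.07 in Tsc1-KO kidneys, against 4.27, 4.38 and 4.30 in WT kidneys, a difference of -1.10. The log2 ratio of Car2 to Atp6v0d2 averaged 2.62 in Tsc1-KO kidneys and 3.97 in WT kidneys, a difference of -1.35. For these partners and for Atp6v1g3, Atp6v1c2 and Atp6v1b1, with differences of -1.04, -0.52 and -0.21, every Tsc1-KO library lay below every WT library. The ratio to Atp6v0a4 overlapped between the groups, with a difference of 0.05. The 6 ratios share Car2 and the same libraries.

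**Figure D3:**
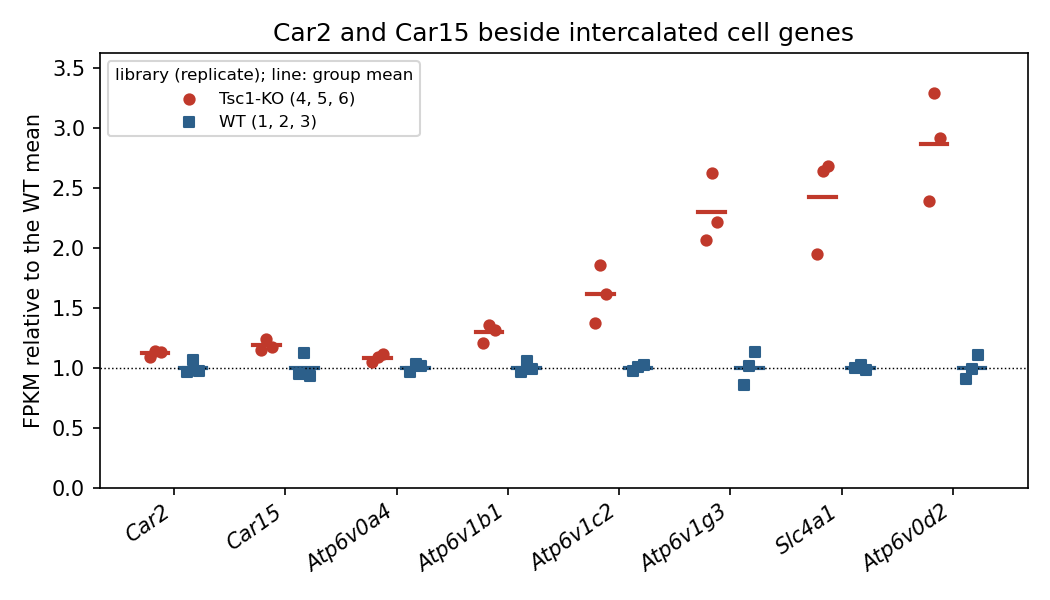
FPKM of Car2, Car15 and 6 acid secretion genes in each library, divided by the WT mean of the gene. Circles are Tsc1-KO replicates 4 to 6, squares are WT replicates 1 to 3 and lines are group means. Car2 in Tsc1-KO kidneys lies between 1.09 and 1.13 times its WT mean, Slc4a1 between 1.94 and 2.68 times and Atp6v0d2 between 2.39 and 3.29 times.

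Intercalated cell markers, a list not limited to A-intercalated cells, did not all move one way. Of 12 such markers 6 rose and 0 fell, beside 1.87% and 0.234% of all genes tested, and those with the smallest p were Dmrt2, a transcription factor, with a log2 fold change of 1.89, Slc4a1, the adhesion receptor Adgrf5 with 1.45 and the receptor tyrosine kinase Kit with 1.08. Their summed level was 252 to 310 FPKM in Tsc1-KO kidneys and 158 to 196 FPKM in WT kidneys. Every Tsc1-KO library lay above every WT library in 7 of the 12, beside 17.3% of all genes tested. In 3 of the 12 every Tsc1-KO library lay below every WT library without passing the test, beside 8.07% of all genes tested. These were the anion exchanger Slc26a7, at 0.256, 0.194 and 0.325 FPKM in Tsc1-KO kidneys against 0.925, 0.714 and 0.605 FPKM in WT kidneys (log2 fold change -1.24, adjusted p = 0.0617), the transcription factor Hmx2 with -0.66 and pendrin, Slc26a4, with -0.20. Slc26a7 was called lower with limma-voom, with no variance trend and with no filter on low values. Its mean was 0.748 FPKM in WT kidneys and 0.258 FPKM in Tsc1-KO kidneys, so it passed the filter of 0.5 FPKM through the WT libraries. Insrr and Slc4a9 had log2 fold changes of -0.05 and -0.03. Of 9 principal cell markers 3 rose and 0 fell, beside 1.87% and 0.234% of all genes tested. The 3 were the sodium channel subunits Scnn1b and Scnn1g and the transcription factor Gata3, with log2 fold changes of 0.66, 0.57 and 0.76. Every Tsc1-KO library lay above every WT library in 4 of the 9 and below in 1, beside 17.3% and 8.07% of all genes tested. The 1 below was Fxyd4, which did not pass the test (log2 fold change -0.35, adjusted p = 0.0732 in limma). Aqp3 and Aqp4, with -0.16 and -0.19, overlapped between the groups. The log2 fold change was positive for 6 of the 9. Over all 12 intercalated cell markers the Pearson r with Car2 ran from -0.83 for Slc26a7 to 0.95 for Adgrf5 across the 6 libraries. The part of intercalated cells, of whichever type, in the level of Car2 was not tested. The number of intercalated cell markers called higher was 4 with no variance trend. It was 0 in the fits lacking Tsc1-KO replicate 6 or WT replicate 1, 1 (Dmrt2) in that lacking Tsc1-KO replicate 5, 4 in that lacking WT replicate 2 and 7 in that lacking WT replicate 3. For principal cell markers it was 0 in the fits lacking Tsc1-KO replicate 6, Tsc1-KO replicate 5 or WT replicate 1, 1 in those lacking Tsc1-KO replicate 4 or WT replicate 2, and 5 in that lacking WT replicate 3. The fit lacking WT replicate 3 called 8.41% of all genes, against 2.11% in the main fit. Shares over all genes in the other leave-one-out fits are not given here, so these counts are not set against them.

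Among 20 transporters of bicarbonate, protons and ammonia, 19 were tested, 3 rose and 0 fell, beside 1.87% and 0.234% of all genes tested. The 3 were Slc4a1 and the ammonia transporters Rhcg and Rhbg, with log2 fold changes of 0.89 for Rhcg and 0.75 for Rhbg. Every Tsc1-KO library lay above every WT library in 9 of the 19 and below in 4, beside 17.3% and 8.07% of all genes tested. The basolateral sodium bicarbonate cotransporter of the proximal tubule, Slc4a4, was among the 4 below but did not pass (log2 fold change -0.36, adjusted p = 0.138 in limma). Slc4a4 was at 120.2, 119.5 and 141.5 FPKM in Tsc1-KO kidneys, against 172.5, 174.9 and 142.3 FPKM in WT kidneys. The apical sodium/proton exchanger Slc9a3, which secretes protons into the proximal tubule, overlapped between the groups with a log2 fold change of -0.08. Slc26a7 belongs to this list too, and limma-voom called it lower. The count called higher was 2 with no variance trend, 0 when WT replicate 1 was left out, likewise for Tsc1-KO replicates 5 and 6, and 2 when WT replicate 2 was left out. In the fit without WT replicate 3 it was 5, adding the anion exchanger Slc4a2 and the sodium/proton exchanger Slc9a4, and Slc4a4 was called lower. That fit called 8.41% of all genes. Shares of all genes called in the other leave-one-out fits are not given here, so these counts are not set against them.

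Car13, a cytosolic form with a broad tissue distribution, was low. It was at 2.30, 1.91 and 1.80 FPKM in Tsc1-KO kidneys, against 1.79, 2.17 and 1.49 FPKM in WT kidneys, and the groups overlapped. Its log2 fold change of 0.14 had a 95% interval of -0.27 to 0.55 (adjusted p = 0.708 in limma). Only 74 to 113 reads per library lay behind these values, and counting alone would give a coefficient of variation near 9.98% in Tsc1-KO and 10.4% in WT libraries, against 13.1% and 18.8% seen.

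Car3 varied more between mice than any other member. CA III, its product, is a cytosolic form of low catalytic activity that is abundant in adipocytes and skeletal muscle. Car3 was at 14.3, 18.0 and 3.61 FPKM in Tsc1-KO kidneys, against 3.10, 7.86 and 53.7 FPKM in WT kidneys. WT replicate 3 was 17.3 times WT replicate 1, and the Tsc1-KO values lay inside the WT range. The fit gave a log2 fold change of -0.17 with a 95% interval of -2.69 to 2.35 (adjusted p = 0.951 in limma). Its direction rested on single libraries, since it was 0.97 without WT replicate 3 and 0.54 when Tsc1-KO replicate 6 was left out, neither past the test. With 106 to 1776 reads per library, the coefficients of variation of 62.5% between Tsc1-KO mice and 129.7% between WT mice were far above the 5.12% and 3.73% that counting gives.

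Some adipocyte genes were low in the same libraries as Car3. Adipoq, Cfd, Plin1, Cidec and Retn were lowest in WT replicate 1 and Tsc1-KO replicate 6, while Fabp4, Pck1 and Lipe did not share this order. Cfd, Plin1 and Cidec were highest in Tsc1-KO replicate 4, whereas Car3 was highest in WT replicate 3. Adipoq, the adipocyte hormone adiponectin, was at 3.0, 2.65 and 0.263 FPKM in Tsc1-KO kidneys, against 0.0726, 1.27 and 3.72 FPKM in WT kidneys. As for Car3, WT replicate 1 and Tsc1-KO replicate 6 were the lowest libraries and WT replicate 3 the highest. Cfd, the adipocyte protease adipsin, was at 19.7, 14.1 and 2.0 FPKM in Tsc1-KO kidneys and at 0.873, 6.25 and 14.2 FPKM in WT kidneys. Over the 6 libraries and on the log2 scale, the Pearson r with Car3 was 0.99 for Retn, 0.91 for Adipoq, 0.89 for Cidec, 0.86 for Plin1, 0.86 for Cfd, 0.48 for Fabp4, 0.24 for Pck1 and 0.19 for Lipe. Retn, the hormone resistin, lay near the limit of detection, at 0 to 0.551 FPKM from 0 to 17 reads per library, so its r rests on few reads. Fabp4, Pck1 and Lipe are also used by other kidney cells, and the proximal tubule makes Pck1. Whether this bears on their r was not tested. The r was -0.13 for Car2, the neighbouring gene.

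Of 9 adipocyte markers 8 were in the table and 7 were tested, and 0 passed. Their summed level, most of it Pck1, was 1579 to 1654 FPKM in Tsc1-KO kidneys and 874 to 1236 FPKM in WT kidneys. Of 8 skeletal muscle markers 2 were in the table, with a summed level of 0.75 to 1.69 FPKM in Tsc1-KO kidneys and 0.997 to 1.39 FPKM in WT kidneys, and their r with Car3 was 0.32 for Mylpf and -0.79 for Atp2a1. The part of adipose tissue left on the kidney in the level of Car3 was not tested.

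**Figure D4:**
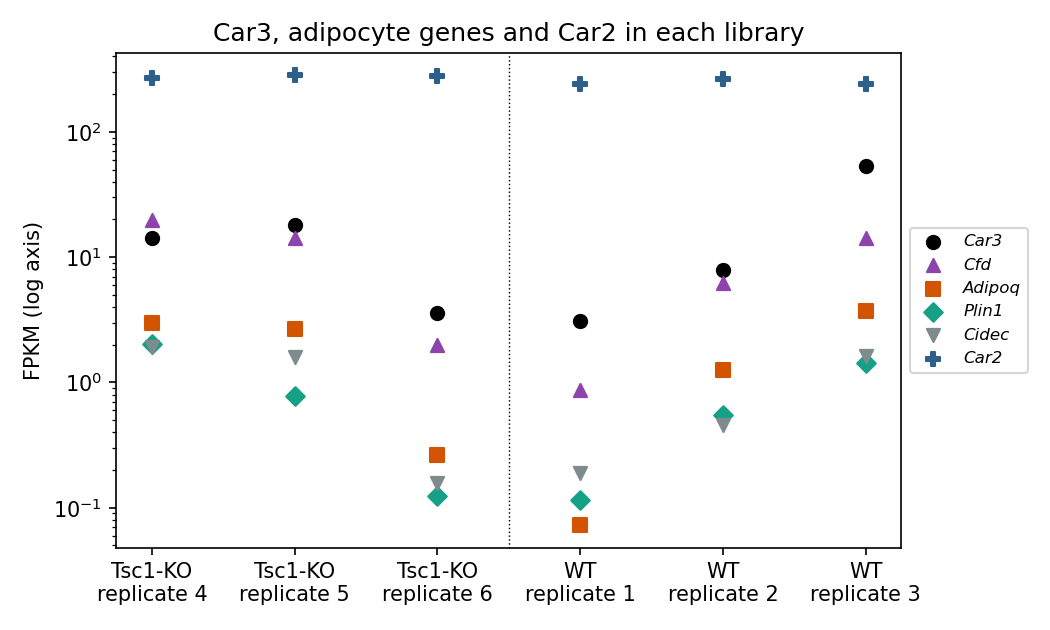
FPKM of Car3, 4 adipocyte genes and Car2 in each of the 6 libraries, on a log axis, with Tsc1-KO libraries on the left and WT libraries on the right. Car3 and these 4 genes, Cfd, Adipoq, Plin1 and Cidec, are low together in Tsc1-KO replicate 6 and WT replicate 1, while Car2 stays between 240 and 282 FPKM. The adipocyte markers Retn, Fabp4, Pck1 and Lipe are not shown.

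Car5b, the mitochondrial form with the wider tissue distribution of its pair, differed little between mice. It was at 21.8, 23.0 and 25.2 FPKM in Tsc1-KO kidneys (23.3 ± 1.74, SD, n = 3), against 24.2, 24.5 and 24.6 FPKM in WT kidneys (24.5 ± 0.20, SD, n = 3). The WT values lay inside the Tsc1-KO range. Its log2 fold change of -0.07 had a 95% interval of -0.23 to 0.09, that is a fold between 0.852 and 1.06 (adjusted p = 0.63 in limma). Car5a, the other mitochondrial form, known from liver, was far lower, at 1.31 to 1.60 FPKM in Tsc1-KO kidneys and 1.51 to 1.75 FPKM in WT kidneys.

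Of the 4 membrane-bound members, Car15 had the lowest p. CA XV is tethered to the membrane by a lipid anchor, and its gene is known for expression in the mouse kidney. Car15 was at 103, 111 and 105 FPKM in Tsc1-KO kidneys (106 ± 4.25, SD, n = 3), against 85, 101 and 83.5 FPKM in WT kidneys (89.9 ± 9.67, SD, n = 3). As for Car2, WT replicate 2 came closest to the Tsc1-KO libraries without reaching them. On the log2 scale its fold change was 0.25 ± 0.08 (SE), with a 95% interval of 0.05 to 0.45, or a fold of 1.19 with an interval of 1.03 to 1.36. The adjusted p was 0.179 in limma, and the exact permutation test gave p = 0.1, the smallest possible. Leaving out each library in turn gave log2 fold changes of 0.20 to 0.33, and the lowest adjusted p over all alternatives, 0.0675, came without WT replicate 2. The Pearson r of Car15 with the 12 intercalated cell markers ran from -0.79 for Slc26a7 to 0.91 for Adgrf5 over the 6 libraries.

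Car4, which encodes the lipid-anchored CA IV of the proximal tubule brush border, did not differ beyond its spread. It was at 142, 138 and 113 FPKM in Tsc1-KO kidneys, against 150, 130 and 153 FPKM in WT kidneys. The lowest library was Tsc1-KO replicate 6, and WT replicate 2 lay among the Tsc1-KO libraries. For Car4 the log2 fold change was -0.15 with a 95% interval of -0.40 to 0.11 (adjusted p = 0.508 in limma). Among the 12 proximal tubule markers, 0 of which passed, the r with Car4 over the 6 libraries ran from -0.15 for Cubn to 0.91 for Slc34a1, the phosphate cotransporter. Slc34a1 was at 1867, 1817 and 1515 FPKM in Tsc1-KO kidneys, against 1850, 1847 and 2079 FPKM in WT kidneys, so it too was lowest in Tsc1-KO replicate 6 and highest in WT replicate 3.

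Car12 and Car14 encode transmembrane forms whose catalytic domain faces the outside of the cell. Car12 was at 121, 126 and 114 FPKM in Tsc1-KO kidneys, against 136, 140 and 91.6 FPKM in WT kidneys. The Tsc1-KO values all lay between WT replicate 3 and the other two WT libraries. For Car12 the log2 fold change was 0.00 with a 95% interval of -0.37 to 0.38 (adjusted p = 0.996 in limma), and without WT replicate 3 it was -0.19 with an adjusted p of 0.102, in a fit that called 8.41% of all genes.

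Car14 was at 69.6, 79.2 and 57.7 FPKM in Tsc1-KO kidneys, against 59.8, 75.3 and 45.5 FPKM in WT kidneys. The groups overlapped, and WT replicate 3 was again the lowest library. The log2 fold change was 0.21 with a 95% interval of -0.25 to 0.67 (adjusted p = 0.607 in limma), and it was 0.02 without WT replicate 3. Car14 overlaps the protein-coding gene Aph1a in the RefSeq annotation. Whether the read counting used strand is not given in the sources used here, so reads of the overlap could belong to either gene.

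The levels of Car12 and Car14 moved with that of Slc5a2, the glucose cotransporter SGLT2 of the early proximal tubule. Slc5a2 was at 235, 249 and 212 FPKM in Tsc1-KO kidneys, against 259, 276 and 174 FPKM in WT kidneys, and WT replicate 3 was the lowest library. Over the 6 libraries the r of Slc5a2 was 0.99 with Car12, with the libraries in the same order, and 0.85 with Car14. Proximal tubule markers differed among themselves in this, and over the 12 of them r ran from -0.66 for Slc22a7 to 0.99 with Car12 and from -0.65 for Slc22a6 to 0.85 with Car14. With the 12 intercalated cell markers, the r of Car12 ran from -0.69 for Slc4a9 to 0.15 for Adgrf5. The part of the sampled kidney region in these levels was not tested.

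**Figure D5:**
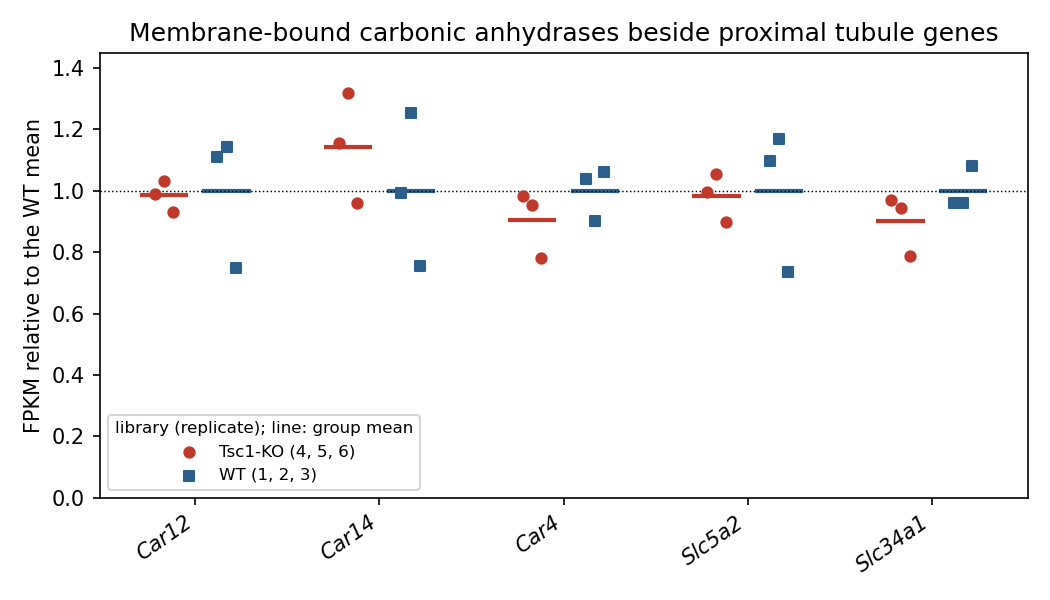
FPKM of Car12, Car14, Car4 and the proximal tubule genes Slc5a2 and Slc34a1 in each library, divided by the WT mean of the gene. Circles are Tsc1-KO replicates 4 to 6, squares are WT replicates 1 to 3 and lines are group means. WT replicate 3 is the lowest library for Car12 at 0.749, Car14 at 0.756 and Slc5a2 at 0.736 times the WT mean, and the highest for Car4 at 1.06 and Slc34a1 at 1.08 times their WT means. Of the proximal tubule markers, Slc5a2 had the highest r with Car12 and Car14, and Slc34a1 with Car4. The other proximal tubule markers are not shown.

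Car8, which encodes a carbonic anhydrase-related protein without catalytic activity, was the lowest of the 9. Its product is known in neurons as a binding partner of an inositol trisphosphate receptor. Car8 was at 1.02, 0.902 and 1.26 FPKM in Tsc1-KO kidneys, against 0.712, 1.01 and 0.776 FPKM in WT kidneys, and WT replicate 2 lay among the Tsc1-KO libraries. The log2 fold change of 0.32 was the highest of the 9, but its 95% interval ran from -0.16 to 0.79 (adjusted p = 0.442 in limma). Only 91 to 178 reads per library lay behind these values, and counting alone would give a coefficient of variation near 8.62% in Tsc1-KO and 9.73% in WT libraries, against 17.3% and 19.0% seen.

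The 4 family genes outside this set gave 0 calls. Car9, the transmembrane form known as a target of the hypoxia-inducible factor, was at 5.97, 4.36 and 4.80 FPKM in Tsc1-KO kidneys, against 4.82, 6.55 and 6.92 FPKM in WT kidneys, and the groups overlapped (log2 fold change -0.26, adjusted p = 0.458). Of 13 hypoxia-responsive genes 1 rose and 0 fell, beside 1.87% and 0.234% of all genes tested. This was Epo, the hormone erythropoietin, at 1.3, 0.493 and 1.48 FPKM in Tsc1-KO kidneys, against 0, 0 and 0.0992 FPKM in WT kidneys, with at most 34 reads in a library. Its mean was 1.09 FPKM in Tsc1-KO kidneys and 0.0331 FPKM in WT kidneys. Epo thus passed the filter of 0.5 FPKM only through the Tsc1-KO libraries, and the difference under test let it into the test. Epo was not called with a pseudocount of 1 or 0.01 FPKM, and it was left out by a mean of at least 2 FPKM. The count of this list was 4 without WT replicate 3, with Adm, Ankrd37 and P4ha1, in a fit that called 8.41% of all genes. It was 0 when any other library was left out. In the fits lacking Tsc1-KO replicate 4 or 6, Epo fell under the filter and 12 genes of the list were tested. Shares of all genes called in these other leave-one-out fits are not given here, so the counts are not set against them. The log2 fold change was 0.16 for Car11, another related protein without catalytic activity, 0.00 for Car7, a cytosolic form, and -0.16 for Car5a.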

How the data were processed

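Poly(A)-selected kidney RNA was sequenced in 6 libraries, 3 of Tsc1-KO mice (replicates 4 to 6) and 3 of WT mice (replicates 1 to 3), grouped by their labels. Per the submitters' notes, HISAT2 2.0.4 and HTSeq 0.9.1 were used, and the genome build is not given in the sources used here. The authors deposited FPKM for each library. Their base mean columns, also deposited, hold a signal, namely normalised counts averaged within each genotype and overall. The authors' deposited fold change, log2 fold change, p-value and adjusted p-value columns hold their own comparison and were not used, nor were their lists of higher and lower genes.

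The 13230 genes averaging 0.5 FPKM or more were kept, and log2(FPKM + 0.1) was fitted on genotype with limma 3.58.1 in R 4.3.3 with a variance trend. Tests were 2-sided, p-values were adjusted over all genes kept by the Benjamini-Hochberg method, and an adjusted p under 0.05 was called. Fold changes are on the log2(FPKM + 0.1) scale, which understates those of low genes. The script was tested on simulated data. Whole reads were recovered from the FPKM with the help of the base means. Among the 90069 values that came to 10000 reads or fewer, 100% were whole to within 0.02. The recovered reads gave the depth and went into limma-voom as an alternative. The counting coefficient of variation is that of a Poisson count at the mean reads of a group. Single values were compared with an exact 2-sided permutation test, which cannot go below p = 0.1 with 3 against 3. The limma p-values weigh the difference between genotypes against the spread between these mice, moderated over all genes kept.

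The members and the marker lists, from general knowledge, were chosen with earlier results of these data known. Genes named are all members, the other listed family genes, markers set beside a member, and up to 4 called genes of each list by p. Sequences are the longest open reading frame starting with ATG of protein-coding GENCODE vM21 transcripts matched by Entrez identifier, aligned to Car2 with Biopython 1.88. The sequence of 1 member is not reported here. RefSeq was used for neighbouring genes alone. Python 3.11.15, numpy 2.4.6, pandas 2.3.3, scipy 1.17.1 and matplotlib 3.10.9 made the tables and figures. Alternatives were other pseudocounts (1 and 0.01 FPKM), no filter or a mean of at least 2 FPKM, median-of-ratios or total scaling, no variance trend, limma-voom and leaving out each library in turn.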

Additional observations from a re-analysis of the deposited data

How the results depend on the processing

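The count of carbonic anhydrases called stayed at 0 under all 14 alternatives, leave-one-out fits included, and 0 of 124 single values passed, the lowest adjusted p being 0.0675. In 7 members every value kept its sign. The 7 reversed values belonged to Car3 and Car12. The log2 fold change of Car3 was 0.97 without WT replicate 3 and 0.54 when Tsc1-KO replicate 6 was left out, and leaving out each library in turn gave -1.07 to 0.97. That of Car12 was -0.045 with median-of-ratios scaling, -0.040 with limma-voom, -0.19 without WT replicate 3, -0.0031 when Tsc1-KO replicate 4 was left out and -0.033 when Tsc1-KO replicate 5 was, with a leave-one-out range of -0.19 to 0.11. The cause was not tested. Car8 and Car13 were not tested at a mean of at least 2 FPKM. No paired analysis was possible because the labels name no litters or other pairs of mice. For Car8 and Car13, the members with the fewest reads on average, the spread between mice was above that of counting. Counts called in the marker and transporter lists changed with the fit and with single libraries, as given beside each list. The share of all genes called changed too, from 2.11% in the main fit to 8.41% without WT replicate 3.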
